A study of Mus musculus with 32 samples.

Results

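Collagens are the main structural proteins of the mesentery, the sheet of connective tissue, fat and vessels that suspends the intestine. The collagen genes were examined in mesentery of mice given pristane, a branched mineral-oil hydrocarbon also called TMPD. Every gene whose platform symbol was Col, a number, the letter a and a number was taken as a member, read through the brightest probe set assigned to that gene alone. This gave 42 of the 18193 genes on the array. They comprised 11 chains of fibrillar collagens, 6 chains of type IV collagen of basement membranes, 9 fibril-associated collagens with interrupted triple helices (FACIT) and 16 other chains. Of these, 33 exceeded a signal of 103.7, the median of all values, on at least 3 arrays and were tested among 13016 genes. The tested members were 9 fibrillar, 6 basement membrane, 7 FACIT and 11 other chains.

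The 32 samples were single Affymetrix arrays of mesentery RNA from BALB/c mice, DBA mice and their F1 hybrid (BALB/DBA F1, titled CDF1). Treated mice had received 0.5 ml pristane intraperitoneally and were sampled on day 3 (3 arrays of each strain) or day 18 (4 BALB/c and 3 DBA arrays). Untreated controls were 7 BALB/c, 6 DBA and 3 F1 arrays. The labels give no age, sex or substrain, and none of the groups carries a named allele. Codes in the titles fall into 3 runs, and a response is the difference between treated arrays and controls of the same strain and run. Replicates are numbered in order of deposition only. No label states whether each array is a different animal or a pool, so p-values measure the spread between these arrays, and the number of arrays limits their precision.

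Array medians lay between 90.6 and 135.3. BALB/c control replicate 2, an array of the first run, stood apart: its highest correlation with any other array was 0.858, against 0.966 to 0.988 for the others. Its mean log2 signal over 8 pancreatic acinar markers was 16.794, the highest of all arrays. Calls of the BALB/c day 18 response are therefore also given without it. Xist, the X-inactivation transcript of female cells, was at 12273.7 or more on 21 arrays and at 120.1 or less on 11. In F1 it was high on the 3 treated arrays and low on the 3 controls. In every other pair, treated and control groups held equal numbers of high arrays. For that hybrid, an effect of pristane and an effect of sex cannot be told apart. A term for Xist draws only on the BALB/c and DBA groups of the day 18 runs, which alone held both high and low arrays. BALB/c control replicate 2 is among their high arrays, and its part in the F1 values given below with that term was not tested. The term cannot remove a sex effect particular to the hybrid.

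A collagen molecule is a triple helix of 3 chains, either copies of one chain or a mixture encoded by different genes. Type I, III and V chains build the fibrils that carry tension, type IV chains form the sheet-like network under epithelium, mesothelium and vessels, and FACIT chains decorate fibril surfaces. Fibrillar chains are hydroxylated and glycosylated in the endoplasmic reticulum, trimmed outside the cell, cross-linked by lysyl oxidases, bound by receptors and cleaved by metalloproteinases.

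The upstream sequences of 6 members are shown because the results below turn on these genes: 4 fibrillar chains called higher in at least 2 responses, and Col4a5 with its divergent neighbour Col4a6. Each is the 150 bases before the annotated start from RefSeq (GRCm38.p6), in the direction of transcription. Capitals mark 3 short motifs on either strand, the CCAAT box (CCAAT), the GC box recognised by Sp1-type factors (GGGCGG) and the canonical TATA box of many regulated genes (TATAAA), so that some runs show the reverse complement of a motif. The windows lie at chr3:145292322-145292471 (plus strand, Col24a1), chr6:4505468-4505617 (plus, Col1a2), chr1:45311388-45311537 (plus, Col3a1), chr2:27886275-27886424 (plus, Col5a1), chrX:141475269-141475418 (plus, Col4a5) and chrX:141474077-141474226 (minus, Col4a6).
Col24a1: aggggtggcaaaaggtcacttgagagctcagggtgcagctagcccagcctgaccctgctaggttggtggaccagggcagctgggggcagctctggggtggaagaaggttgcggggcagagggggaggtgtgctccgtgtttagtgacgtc
Col1a2: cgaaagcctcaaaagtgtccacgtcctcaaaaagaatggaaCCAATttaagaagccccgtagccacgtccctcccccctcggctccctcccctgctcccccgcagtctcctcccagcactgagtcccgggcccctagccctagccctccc
Col3a1: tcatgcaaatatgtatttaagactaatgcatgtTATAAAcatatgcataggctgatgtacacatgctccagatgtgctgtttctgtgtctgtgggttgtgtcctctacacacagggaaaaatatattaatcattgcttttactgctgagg
Col5a1: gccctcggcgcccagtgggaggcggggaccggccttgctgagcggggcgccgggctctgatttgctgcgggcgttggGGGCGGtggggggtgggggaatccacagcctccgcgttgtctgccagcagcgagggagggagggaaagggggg
Col4a5: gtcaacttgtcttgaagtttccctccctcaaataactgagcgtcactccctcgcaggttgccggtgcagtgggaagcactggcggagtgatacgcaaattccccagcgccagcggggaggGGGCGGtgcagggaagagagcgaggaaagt
Col4a6: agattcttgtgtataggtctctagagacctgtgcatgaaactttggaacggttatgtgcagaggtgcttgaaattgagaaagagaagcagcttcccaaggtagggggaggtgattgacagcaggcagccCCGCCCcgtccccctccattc

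Windows were matched for 33 of the 42 members, among them 27 of the 33 tested. Col1a1 and Col5a2 were not matched. Over the 250 bases before the start, CCAAT was present in 33.3% of the tested members with a window and in 33.8% of 32851 RefSeq windows. GGGCGG was present in 59.3% and 32.7%, and TATAAA in 11.1% and 12.4%. Among the 6 shown, within the 150 bases printed, Col3a1 alone held TATAAA, Col1a2 alone held CCAAT, and Col24a1 held none of the 3 motifs. Motif matches describe the letters only. The Col4a5 and Col4a6 starts lie 1343 bases apart on opposite strands of the X chromosome, and those of Col4a1 and Col4a2 lie 21 bases apart on opposite strands of chromosome 8.

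The first comparison asked which collagen genes changed after pristane in each strain and at each time. Col24a1 was called higher in 5 of 5 responses, and the type I chains Col1a1 and Col1a2, the type V chains Col5a1 and Col5a2 and the type IV chain Col4a5 in 4 each. The FACIT and other chains were called lower more often than higher, except for the other chains in DBA. Of 11 other chains tested, 0, 0, 2, 0 and 2 were higher and 1, 4, 1, 4 and 1 lower. The order is BALB/c, F1 and DBA at day 3, then BALB/c and DBA at day 18. Beside the background shares given below, these small counts are not a result about either class. Of the remaining type IV chains Col4a6 was called higher in 3 responses and Col4a1, Col4a2, Col4a3 and Col4a4 lower in 1 to 3. In BALB/c at day 3, 6 members were called higher and 2 lower (18.3% and 17.2% of all genes tested were called higher and lower). In F1 at day 3, 4 were higher and 9 lower (background 18.6% and 18.0%). In DBA at day 3, 10 were higher and 1 lower (background 16.4% and 13.4%). In BALB/c at day 18, 6 were higher and 8 lower (background 21.7% and 22.2%). In DBA at day 18, 10 were higher and 8 lower (background 22.4% and 25%). As shares of the 33 tested, the calls came to 24.2%, 39.4%, 33.3%, 42.4% and 54.5%, beside 35.5%, 36.5%, 29.8%, 43.9% and 47.4% of all genes tested, so the share of members called lay below the background in both BALB/c responses and above it in the other 3, and is not a result about the members.

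The direction sorted by gene. Over the 5 responses 12 members were higher in at least 1, 14 were lower in at least 1, none was called both ways and 7 were called in none. Counts over tested members carry a limit: Col24a1 passed the filter on dim genes only through treated arrays, and Col4a3, Col13a1 and Col19a1 only through controls (8, 9 and 4 arrays), so that these 4 could be tested only because they were high on one side. The counts moved with the fit: over the alternatives tried they ran from 5 to 12 higher and 0 to 10 lower in BALB/c at day 3, from 3 to 10 and 2 to 11 in F1, from 8 to 11 and 0 to 5 in DBA at day 3, from 1 to 8 and 1 to 11 in BALB/c at day 18, and from 7 to 12 and 5 to 14 in DBA at day 18. With F1 controls replaced by the mean of the parental controls, 10 members were higher and 4 lower, and with a term for Xist 2 were lower. The BALB/c day 18 split was 8 higher and 7 lower after quantile normalization, 5 and 4 after median centring, and 4 and 12 without BALB/c control replicate 2. With the BALB/c day 18 comparison fitted on its own arrays alone, 1 member was higher and 1 lower. The F1 split was 7 and 9 after quantile normalization.

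**Figure D1:**
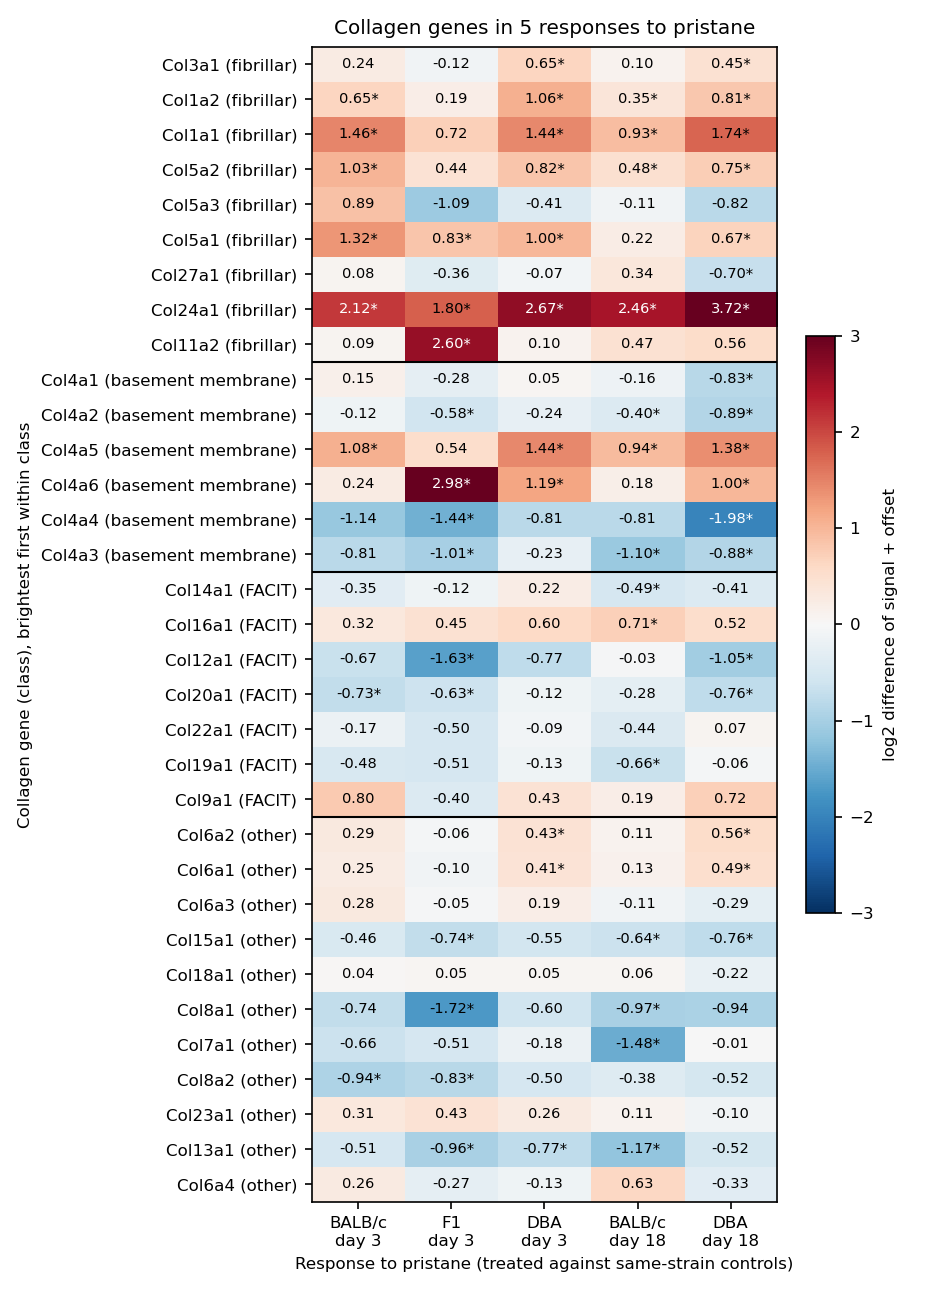
Log2 difference (signal plus an offset of 24.9) between treated and control arrays for the 33 collagen genes tested, in 5 responses; red is higher and blue lower after pristane, and a star marks an adjusted p under 0.05. Col24a1 is starred in all 5 columns, from 1.80 to 3.72, and the type I chains and the type V chains Col5a1 and Col5a2 are mostly red. The type V chain Col5a3 is mostly blue without a star, and Col4a2, Col15a1, Col8a1 and Col13a1 are mostly blue.

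Among the fibrillar chains, 5 of 9 tested were called higher in BALB/c at day 3, 3 in F1, 6 in DBA at day 3, 4 in BALB/c at day 18 and 6 in DBA at day 18, where Col27a1 was the 1 called lower. Over all genes tested, 18.3%, 18.6%, 16.4%, 21.7% and 22.4% were called higher in that order. The class medians were 0.89, 0.44, 0.82, 0.35 and 0.67 on the log2 scale, beside medians between -0.04 and 0.00 over all genes tested. Every higher count and every median includes Col24a1. That gene passed the filter only through treated arrays, so the filter favoured its part in these figures, and it is 1 of the 3 called in F1. Differences are given on the scale of log2(signal + 24.9), which understates the change of dim genes. Fewer cells of a type and less RNA per cell cannot be told apart in these whole-tissue samples.

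Col1a1 encodes the chain present in 2 copies in type I collagen, the principal fibril protein. In BALB/c controls of the day 3 run its signals were 5385.7, 5654.5 and 7569.9, against 17329.8, 15356.9 and 18072.9 at day 3. DBA controls of that run gave 6592.6, 6316 and 5863.9, against 17834.1, 16863 and 16390.3. In both strains every treated array lay above every control. The difference was 1.46 ± 0.29 (SE, adjusted p = 0.00028) in BALB/c and 1.44 ± 0.29 (0.00045) in DBA. DBA arrays at day 18 read 8981.8, 16015.4 and 10785, against 3537.8, 4095.8 and 2845.5, a difference of 1.74 ± 0.29 (1.9e-05), about 3.33-fold. Through this probe set it was the largest Col1a1 difference, but a second probe set gave 0.60 (0.16) there. In BALB/c at day 18 the 4 treated arrays lay between 9705.5 and 12234.1 and the controls between 2616 and 10920.6, so the groups overlapped, with a difference of 0.93 ± 0.25 (0.0037) that was 0.54 (0.015) without BALB/c control replicate 2. F1 controls were the highest controls of the day 3 run, at 8272.5, 9237.6 and 11175.7, against 16577.3, 15832.9 and 14519.9 after pristane. The F1 difference of 0.72 ± 0.29 was not called (0.053). With a term for Xist it was 1.25 (0.0028), and against the parental controls 1.33 (8.8e-05). The Xist term draws in part on BALB/c control replicate 2, which read 2616.

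Col1a2, the other type I chain, was called higher in the same 4 responses, with smaller differences through its brightest probe set. Its difference was 0.65 ± 0.15 (adjusted p = 0.0014) in BALB/c at day 3, 1.06 ± 0.15 (7.9e-06) in DBA at day 3 and 0.81 ± 0.15 (7.7e-05) in DBA at day 18. Its DBA arrays read 32731.1, 32124 and 30292.7 at day 3, against 15818.8, 16662.5 and 13418.2 in controls. They read 24096.3, 28007.9 and 25756 at day 18, against 14861, 15329.6 and 14143.4. Neither pair of groups overlapped, and the control arrays lay closely together. The BALB/c day 18 difference was 0.35 ± 0.13 (0.031) and was lost without either of 2 treated arrays (replicate 1 or 4) or either of 2 controls (replicate 1 or 2), with values of 0.27 to 0.35 (0.055 to 0.12). Without BALB/c control replicate 2 it was 0.28 (0.081). In F1 it was 0.19 ± 0.15 (0.35).

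The size of the Col1a2 and Col3a1 responses depended on the probe set. The brightest Col1a2 probe set had a mean signal of 22300, rank 50 of 45037 probe sets. A second Col1a2 probe set (mean signal 8794) gave 1.79, 0.71, 1.50, 1.18 and 1.88 in BALB/c, F1 and DBA at day 3 and BALB/c and DBA at day 18, all called, and a further one (372.8) gave 1.23 to 1.33 in the BALB/c and day 18 responses, 1.62 in DBA at day 3 and 1.04 in F1, all called. For Col1a1 the second probe set was called in BALB/c and DBA at day 3 and in BALB/c at day 18 (1.93, 1.36 and 1.17) but not in DBA at day 18 (0.60, adjusted p = 0.16) or F1 (0.55, 0.23). No member had probe sets called in opposite directions in any response, over the 18 tested members with more than 1 probe set above the filter.

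Col3a1 encodes the single chain of type III collagen, which mixes with type I in elastic tissues. Through its brightest probe set, rank 34 of 45037, it was called higher only in DBA. There the day 3 arrays read 34626, 32664.4 and 34304.6, against 23929.9, 18782.8 and 22368.1 in controls, a difference of 0.65 ± 0.16 (adjusted p = 0.0025). At day 18 they read 21173.5, 24058.7 and 22064.3, against 16200.7, 17988.4 and 15086.2, a difference of 0.45 ± 0.16 (0.019) that was lost without DBA day 18 replicate 2 or DBA control replicate 3 (0.39 and 0.40, 0.074 and 0.079). The DBA groups did not overlap at either time. In BALB/c the difference was 0.24 at day 3 (0.25) and 0.10 at day 18 (0.60), and in F1 -0.12 (0.60). The dimmer Col3a1 probe set (mean signal 6382) gave 1.73 and 1.12 in BALB/c at day 3 and day 18 and 1.43 and 1.19 in DBA, all called, and 0.60 in F1 (0.11). So whether Col3a1 was called in BALB/c turned on the probe set.

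Col5a1 and Col5a2 encode chains of type V collagen, which starts type I fibrils and limits their width. Col5a1 controls of BALB/c in the day 3 run read 1529.6, 1746 and 1799.7, against 4702.3, 3921.6 and 4182.1 after pristane, a difference of 1.32 ± 0.26 (adjusted p = 0.00029). DBA controls read 2735.8, 1932.7 and 1716.8, against 4591.4, 4092.5 and 3912, a difference of 1.00 ± 0.26 (0.0051). In F1 the controls read 2433.5, 2856.3 and 2795, against 4945.6, 4316.3 and 5133.6, a difference of 0.83 ± 0.26 (0.015). Treated and control arrays did not overlap in any of the 3 strains at day 3. The F1 call was lost without F1 day 3 replicate 3 or F1 control replicate 1 (0.053 each), and of the other 2 Col5a1 probe sets 1 gave 0.44 in F1 (0.23). At day 18 Col5a1 differed by 0.67 ± 0.26 in DBA (0.037), lost without DBA day 18 replicate 2 or DBA control replicate 1 or 3 (0.43 to 0.69, 0.068 to 0.23) and at 0.53 (0.12) through that probe set, and by 0.22 ± 0.23 in BALB/c (0.46), or -0.13 (0.56) without BALB/c control replicate 2.

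Col5a2 was called higher in 4 responses. Its BALB/c controls of the day 3 run lay between 4376.8 and 4632.4 and treated arrays between 8835.1 and 9481.3, a difference of 1.03 ± 0.21 (adjusted p = 0.00045), the tightest separation of this gene. It rose by 0.82 ± 0.21 in DBA at day 3 (0.0045) and by 0.75 ± 0.21 in DBA at day 18 (0.0052), where a second Col5a2 probe set gave 0.50 (0.18). The BALB/c day 18 call (0.48 ± 0.18, 0.035) was lost without BALB/c day 18 replicate 1 or 4 or BALB/c control replicate 1 or 2 (0.26 to 0.46, 0.077 to 0.20). The second probe set gave 0.46 (0.15) in that response, and without BALB/c control replicate 2 the difference was 0.26 (0.20). F1 gave 0.44 ± 0.21 (0.11). Col5a3, another type V chain, was called in no response. At day 3 BALB/c differed by 0.89, F1 by -1.09 and DBA by -0.41, with standard errors of 0.44 and adjusted p of 0.12, 0.053 and 0.53. The Col5a3 difference at day 18 was -0.11 in BALB/c (0.85) and -0.82 in DBA (0.13).

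Col24a1, a fibrillar collagen first described in developing bone, had the largest difference of any tested member in 4 of the 5 responses, Col4a6 and Col11a2 lying above it in F1. Its control signals lay between 0.4 and 21.2 and its treated signals between 93.8 and 689.7, with no overlap anywhere. The DBA controls of the day 18 run read 14.8, 2.8 and 12.2, against 287.4, 689.7 and 391.7 at day 18. BALB/c at day 18 read 233.1, 118.6, 114.8 and 125.1, against 3, 4.6, 3.3 and 11.1. The highest treated array was a DBA day 18 array, and the lowest was an F1 array. At day 3 BALB/c differed by 2.12, F1 by 1.80 and DBA by 2.67, with standard errors of 0.31. At day 18 BALB/c differed by 2.46 ± 0.27 and DBA by 3.72 ± 0.31. The 5 calls had adjusted p between 4.8e-10 and 6.4e-05. The treated arrays through which it passed the filter numbered 14. Its control signals lie below the offset, so the size depends on it: over the alternatives tried the DBA day 18 difference lay between 2.24 and 4.10 and the F1 difference between 0.90 and 2.28, and none of the 5 calls was lost, except that the stricter filter left the gene out. The BALB/c day 18 difference was 2.45 without BALB/c control replicate 2. It has 1 probe set on the array.

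**Figure D2:**
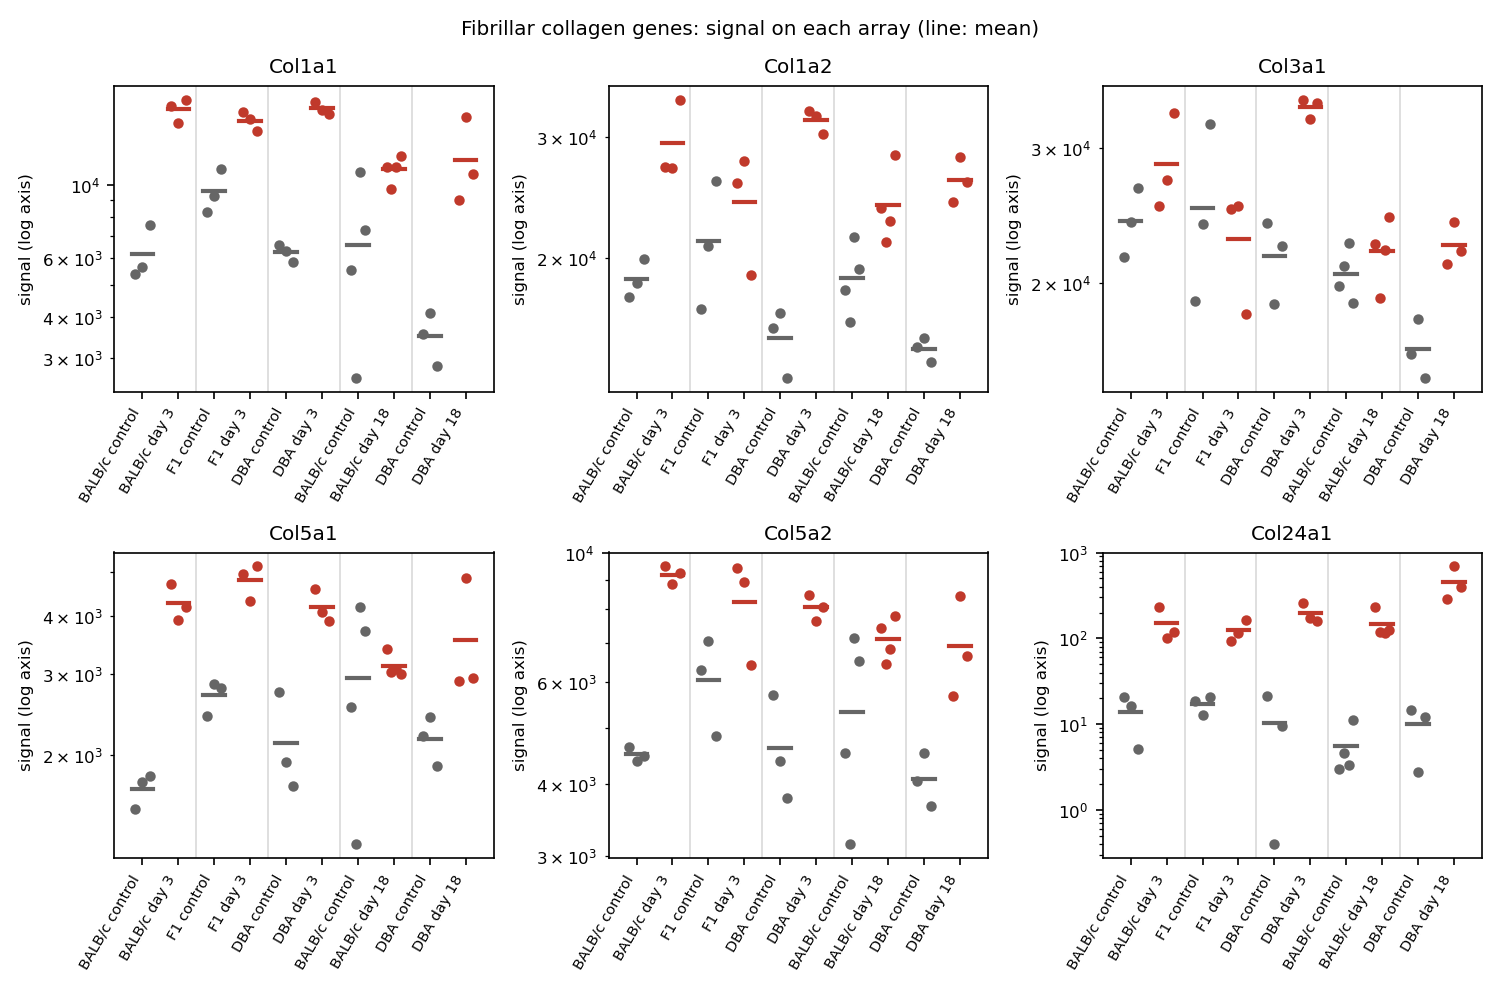
Signal of 6 fibrillar collagen genes on each of the 32 arrays (log axis), grey for untreated controls and red for pristane, with a line at the group mean; each pair between vertical lines shares a strain and a title code run, the first 3 pairs being day 3 and the last 2 day 18. Treated and control arrays of Col24a1 are separate in every pair, and those of Col1a1 in all but the BALB/c day 18 pair, where controls run from 2616 to 10920.6.

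The other fibrillar chains behaved differently. Col11a2, a type XI chain known from cartilage, read 264.9, 456.6 and 392.8 on F1 day 3 arrays, against 73.7, 51.9 and 9.4 on F1 controls, a difference of 2.60 ± 0.34 (adjusted p = 1.4e-06). No array of another group exceeded 185.3. Its differences in the other responses were 0.09 and 0.10 in BALB/c and DBA at day 3 and 0.47 and 0.56 at day 18, none called. Col27a1 was at 879.5, 873.2 and 777.1 in DBA at day 18, against 1312.8, 1237 and 1613.7 in controls, a difference of -0.70 ± 0.25 (0.023) that was lost without DBA day 18 replicate 3 or DBA control replicate 3 (-0.64 and -0.58, 0.073 and 0.098), and that a second Col27a1 probe set gave as -0.51 (0.16). Its other 4 differences lay between -0.36 and 0.34.

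The type IV chains split within the class. Of 6 tested, 1, 1, 2, 1 and 2 were called higher and 0, 3, 0, 2 and 4 lower in BALB/c, F1 and DBA at day 3 and BALB/c and DBA at day 18, with medians of 0.01, -0.43, -0.09, -0.28 and -0.85. Beside the background shares given above, counts of 1 or 2 of 6 are not a result about the class. Col4a1 and Col4a2, which share their start region and form the ordinary network of basement membranes, were lower in DBA at day 18. Col4a1 read 7586.2, 7478.5 and 4947.6, against 10897, 13059.6 and 11093.5 in controls, a difference of -0.83 ± 0.19 (adjusted p = 0.00059). Col4a2 read 4145, 3983.9 and 3202.9, against 6742.5, 7613.2 and 6562.7, a difference of -0.89 ± 0.15 (2.3e-05), about 0.541 of the control level. Neither gene's groups overlapped. Col4a2 also fell in F1 (-0.58 ± 0.15, 0.0033), where 7385.2, 7818.8 and 6812 stood against 9713.9, 11583.7 and 11763.3. That F1 call was lost with a term for Xist (-0.32, 0.14) and against the parental controls (-0.17, 0.31). For BALB/c at day 18 Col4a2 differed by -0.40 ± 0.13 (0.014), lost without BALB/c control replicate 3 (-0.25, 0.092), and by -0.53 (0.00064) without BALB/c control replicate 2. At day 3 the BALB/c and DBA differences of both chains lay between -0.24 and 0.15 and were not called. Col4a1 differed by -0.28 in F1 (0.25) and -0.16 in BALB/c at day 18 (0.46), or -0.35 (0.045) without BALB/c control replicate 2.

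Col4a3 and Col4a4, which join Col4a5 in the network of specialised membranes such as that of the kidney glomerulus, were dim and lower in several responses. Col4a4 read 10, 8.8 and 18.4 in DBA at day 18, against 131.4, 141.2 and 96.1 in controls, a difference of -1.98 ± 0.48 (adjusted p = 0.0012). A second, dimmer Col4a4 probe set (mean signal 79.1) gave -0.62 there (0.11), so the call and its size rest on the brighter one. In F1 it read 115.2, 56.4 and 131.3, against 344.2, 324.2 and 251.4, a difference of -1.44 ± 0.48 (0.019), lost without F1 day 3 replicate 2 or F1 control replicate 1 or 2 (-1.40 to -1.15, 0.054 to 0.095). It was also lost with a term for Xist (-0.88, 0.25) and against the parental controls (-0.51, 0.33). Its BALB/c values at day 3 were 49.5, 65.9 and 63.8 against 168.7, 90.3 and 263.4, a difference of -1.14 that was not called (0.063). At day 18 the BALB/c difference was -0.81 (0.11), or -1.44 (0.00035) without BALB/c control replicate 2. The dimmer Col4a4 probe set was called lower in F1 (-1.28, 0.0020) and in BALB/c at day 3 (-0.87, 0.030) and day 18 (-0.76, 0.024). In DBA at day 3 it gave -0.60 (0.16). Col4a3, tested through control arrays alone, fell in BALB/c at day 18 (-1.10 ± 0.31, 0.0050), or by 1.52 (2.3e-05) on the log2 scale without BALB/c control replicate 2. Its calls in F1 (-1.01, 0.028) and in DBA at day 18 (-0.88, 0.044) each rested on several arrays. The F1 call was lost without any 1 of the 3 treated arrays or without F1 control replicate 2 or 3 (0.054 to 0.071), as well as with a term for Xist (-0.42, 0.44) and against the parental controls (-0.33, 0.41), and the DBA call without DBA day 18 replicate 1 or 2 or DBA control replicate 1 or 2 (0.075 to 0.25).

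Col4a5, in contrast, rose in 4 responses. BALB/c controls of the day 3 run read 1795.1, 1787.9 and 1828.6, against 3973.4, 3394 and 4163.7, a difference of 1.08 ± 0.33 (adjusted p = 0.011). DBA controls read 1782.7, 1968.3 and 1663, against 5621.6, 4632.5 and 4628.8, a difference of 1.44 ± 0.33 (0.0014), about 2.72-fold. The control values of the 2 strains were alike and the treated values lay above them all. At day 18 DBA arrays read 1401.4, 2300 and 1540.2, against 686, 677.2 and 560.4, a difference of 1.38 ± 0.33 (0.00097). BALB/c gave 0.94 ± 0.28 (0.0083) at day 18, with overlapping groups, or 0.49 (0.042) without BALB/c control replicate 2 and 0.26 (0.16) through a second Col4a5 probe set. F1 gave 0.54 ± 0.33 (0.21), where the controls read 2079.8, 2424.4 and 3643.6 and the treated arrays 4814.1, 3447.5 and 3422.8. The second Col4a5 probe set gave 0.60 in F1 (0.0075). It was also called higher in BALB/c and DBA at day 3 and in DBA at day 18 (0.84, 1.05 and 0.76). Through the brightest probe set, Col4a5 levels of untreated DBA arrays differed between runs, at 641.2 ± 70.1 in the day 18 run and 1804.7 ± 154 in the day 3 run (SD, n = 3 each). For this reason each response and each comparison of controls used arrays of the same run only.

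Col4a6, the chain that pairs with Col4a5 in some epithelial and smooth muscle basement membranes, differed first of all by strain. BALB/c arrays, treated or not, lay between 19.2 and 65.2. DBA controls of the day 3 run read 242.2, 349 and 394.7 and DBA day 3 arrays 826.7, 676.3 and 804.1. DBA controls of the day 18 run read 386.7, 326.8 and 346.5 and DBA day 18 arrays 697.6, 809.9 and 692.2. No DBA array came near a BALB/c array, and within DBA the treated arrays lay above the controls at both times, by 1.19 ± 0.30 (adjusted p = 0.0039) and 1.00 ± 0.30 (0.0078). A second Col4a6 probe set gave 0.78 (0.065) and 1.02 (0.0092). In BALB/c the differences were 0.24 (0.58) and 0.18 (0.60). Since the neighbouring Col4a5 was called in BALB/c at both times, the 2 genes of the pair were not called alike in that strain.

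F1 arrays held both Col4a6 ranges. F1 controls read 63, 81.7 and 14.2, within or near the BALB/c range, and F1 day 3 arrays read 871.3, 364.2 and 490.7, within or near the DBA range. The difference was 2.98 ± 0.30 (adjusted p = 2.0e-08), and the second probe set (mean signal 186.7) gave 3.33 (4.0e-09). Col4a6 lies on the X chromosome, and the F1 controls were the arrays low in Xist (55 to 107.1) while the treated F1 arrays were high (12293.5 to 16807.8), so treatment and sex cannot be told apart here. With a term for Xist the difference was 3.07 (7.3e-07). That term is estimated from the BALB/c and DBA groups of the day 18 runs. It cannot remove a sex effect particular to the hybrid, so this value does not tell treatment and sex apart. In DBA and BALB/c, where treated and control groups held equal numbers of high-Xist arrays, the responses were those given above.

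**Figure D3:**
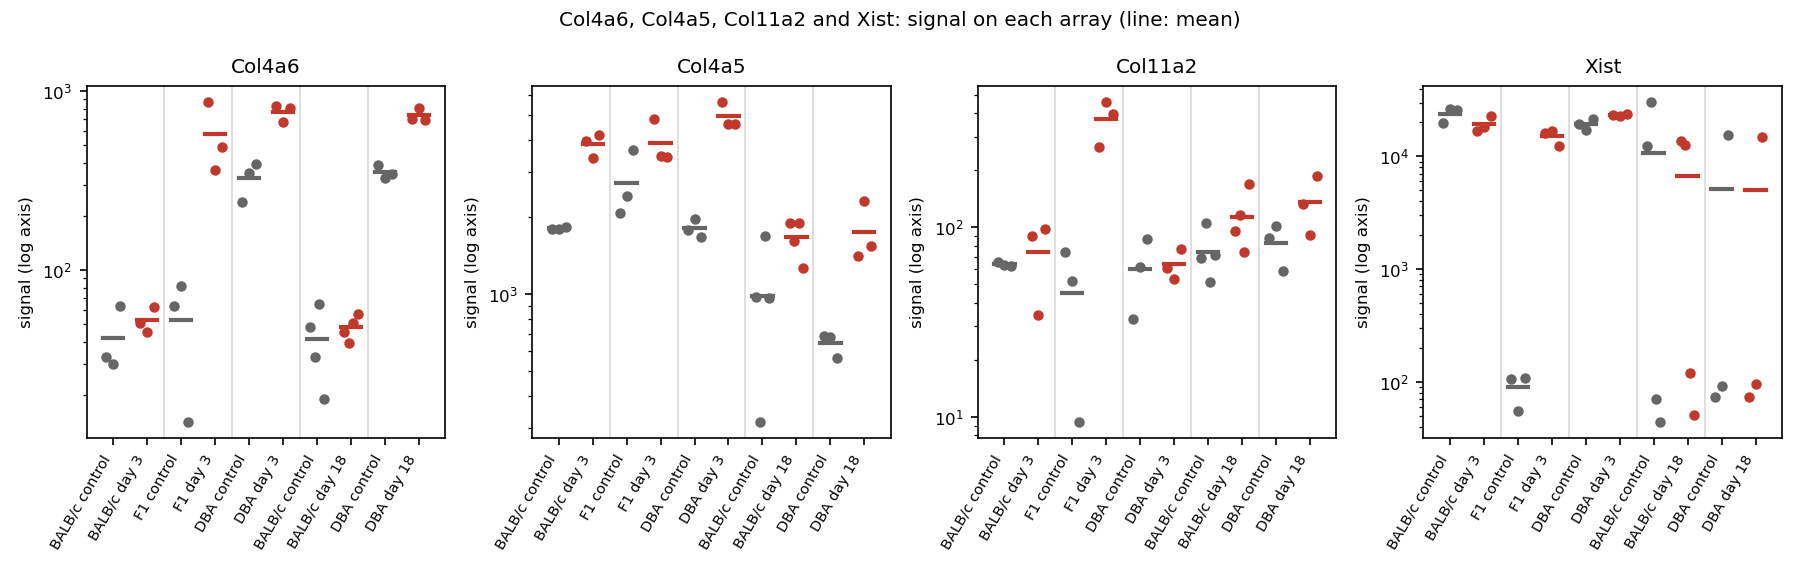
Signal of Col4a6, Col4a5, Col11a2 and Xist on each array (log axis), grey for controls and red for pristane, with a line at the mean; pairs between vertical lines share a strain and a title code run. Col4a6 is between 19.2 and 65.2 on all BALB/c arrays and at 242.2 or more on all DBA arrays, and the F1 pair spans both ranges, as it does for Xist. Col11a2 is above 185.3 on the 3 treated F1 arrays alone.

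Of the FACIT chains, 0 of 7 tested were called higher and 1 lower in BALB/c at day 3, 0 and 2 in F1, none in DBA at day 3, 1 and 2 in BALB/c at day 18, and 0 and 2 in DBA at day 18. Their class medians were -0.35, -0.50, -0.09, -0.28 and -0.06. Col12a1, which links fibrils in tendon and fascia, read 203.7, 204.7 and 163.8 in F1 at day 3, against 801.7, 632.6 and 517.4 in controls. This difference of -1.63 ± 0.33 (adjusted p = 0.00033) was the largest of the class. DBA at day 18 gave 204.9, 224.8 and 177.1 against 430.8, 453.5 and 444.8, a difference of -1.05 ± 0.33 (0.010). A second, dimmer Col12a1 probe set (mean signal 124.3) was called in neither, at -0.70 in F1 (0.14) and -0.26 in DBA at day 18 (0.61), and with the mean of both probe sets the DBA difference was -0.65 (0.10). At day 3 the BALB/c and DBA groups did not overlap either, but the differences of -0.67 and -0.77 were not called (0.11 and 0.081). In BALB/c at day 18 it was -0.03 (0.94), or -0.52 (0.013) without BALB/c control replicate 2, which read 70.1.

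Col20a1 fell in BALB/c (-0.73 ± 0.18, adjusted p = 0.0024) and F1 (-0.63 ± 0.18, 0.0075) at day 3 and in DBA at day 18 (-0.76 ± 0.18, 0.0011). Its day 3 signals were 112.5, 145.9 and 106.7 in BALB/c, against 222.5, 207.5 and 219.6 in controls, with no overlap. The other 2 Col20a1 probe sets were called in neither day 3 response, at -0.36 (0.23) and -0.65 (0.12) in BALB/c and -0.37 (0.21) and -0.46 (0.29) in F1. Col14a1, a regulator of fibril diameter and the brightest of the class, was lower in BALB/c at day 18 (-0.49 ± 0.16, 0.014), a call lost without BALB/c control replicate 3 or 4 (-0.41 and -0.35, 0.058 and 0.077) and of -0.75 (3.6e-06) without BALB/c control replicate 2. DBA arrays at day 3 read 5299.5, 4705.2 and 5520.3, against 4124.2, 4809.2 and 4408.2, a difference of 0.22 (0.42). Col16a1 was the 1 FACIT member called higher, in BALB/c at day 18 (0.71 ± 0.21, 0.0067), where treated arrays lay between 1182.3 and 1494.5. The difference was 0.34 (0.014) without BALB/c control replicate 2, which read 365.5. Its other 4 differences lay between 0.32 and 0.60 with no overlap of groups in any, and were not called (0.058 to 0.33). Col19a1, tested through control arrays alone, was lower in BALB/c at day 18 (-0.66 ± 0.21, 0.012), or -0.56 (0.037) without BALB/c control replicate 2, and Col9a1 and Col22a1 were called in no response.

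Type VI chains form the beaded microfibrils around cells, and Col6a1 and Col6a2 moved as a pair. Col6a2 arrays of DBA at day 18 read 11342.6, 13307.4 and 12057.5, against 8145.3, 9197.3 and 7542 in controls, a difference of 0.56 ± 0.16 (adjusted p = 0.0051). Col6a1 read 9492.4, 10359.4 and 9698, against 6772, 7538.3 and 6685.4, a difference of 0.49 ± 0.14 (0.0061). At day 3 in DBA, Col6a2 differed by 0.43 (0.042) and Col6a1 by 0.41 (0.032). Both day 3 calls were lost without any 1 of the 3 treated arrays or without DBA control replicate 5 or 6 (0.062 to 0.21 for Col6a2, 0.056 to 0.14 for Col6a1). Their partner Col6a3 was called in no response. Its DBA day 18 arrays read 3328.3, 4079.6 and 3245.1, against 3858.3, 4881.2 and 4320.7, a difference of -0.29 ± 0.15 (0.12), opposite in sign to its partners. Col6a4 was not called in any response.

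Of the remaining chains, Col15a1, which anchors basement membranes to the matrix beneath them, was lower in 3 responses: F1 (-0.74 ± 0.26, adjusted p = 0.024), BALB/c at day 18 (-0.64 ± 0.22, 0.022) and DBA at day 18 (-0.76 ± 0.26, 0.016). DBA at day 18 read 890.6, 738.3 and 737.3, against 1302.1, 1645.7 and 1148.6, and F1 read 2506.8, 1807.8 and 2144.8, against 2826.9, 4163.6 and 3940.2. Both pairs of groups were separate. All 3 calls could be lost by leaving out 1 array: F1 day 3 replicate 2 or 3 or F1 control replicate 2 or 3 (0.057 to 0.10), BALB/c day 18 replicate 1 or 4 or BALB/c control replicate 3 or 4 (0.053 to 0.12), and DBA day 18 replicate 2 or 3 or DBA control replicate 2 (0.052 to 0.084). The F1 call was also lost with a term for Xist (-0.46, 0.27) and against the parental controls (-0.49, 0.071), and the BALB/c day 18 difference was -0.88 (0.00087) without BALB/c control replicate 2. Col18a1, the other chain of this family and the source of endostatin, was called nowhere: its differences lay between -0.22 and 0.06, with a standard error of 0.20 in 4 responses.

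Col8a1 and Col8a2 encode type VIII collagen, a short-chain collagen of vessel walls. Col8a1 in F1 read 190.9, 224.8 and 220.1, against 774.8, 822.2 and 673.1, a difference of -1.72 ± 0.42 (adjusted p = 0.0020), or -1.01 (0.093) with a term for Xist. The BALB/c day 18 arrays lay between 107.8 and 192.6 and the controls between 95.5 and 593.9, a difference of -0.97 ± 0.36 (0.030). It was lost without BALB/c day 18 replicate 1 or 4 or BALB/c control replicate 3 or 4 (-0.90 to -0.67, 0.076 to 0.14), and was -1.46 (0.00023) without BALB/c control replicate 2. Col8a2 fell in BALB/c at day 3, where 199.8, 176 and 210 stood against 394.1, 350.8 and 447.8 (-0.94 ± 0.25, 0.0042). It also fell in F1 (-0.83 ± 0.25, 0.010), a call lost without F1 control replicate 3 (-0.68, 0.063), with a term for Xist (-0.63, 0.12) and against the parental controls (-0.50, 0.058). In BALB/c at day 18 it differed by -0.38 (0.15), or -0.73 (0.00015) without BALB/c control replicate 2.

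Col13a1, a transmembrane collagen of cell junctions, was tested through control arrays alone and was lower in 3 responses. BALB/c at day 18 read 18.5, 29.9, 51.7 and 70.7, against 124.9, 179, 98.3 and 94.4, a difference of -1.17 ± 0.24 (adjusted p = 0.00025), or -1.01 (0.0012) without BALB/c control replicate 2. F1 gave -0.96 ± 0.28 (0.0073), or -0.89 (0.052) with a term for Xist. DBA at day 3 gave -0.77 ± 0.28 (0.036), lost without any 1 of the 3 treated arrays or DBA control replicate 4 or 6 (0.062 to 0.15). Col7a1, the anchoring fibril collagen of skin, was called lower in BALB/c at day 18 (-1.48 ± 0.58, 0.040). That call rested on BALB/c control replicate 2, which read 4069 while the other controls read 187.9, 142.4 and 118.4. Without it the difference was -0.33 (0.17), and leaving out any 1 treated array also ended the call. Col23a1 was not called in any response.

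**Figure D4:**
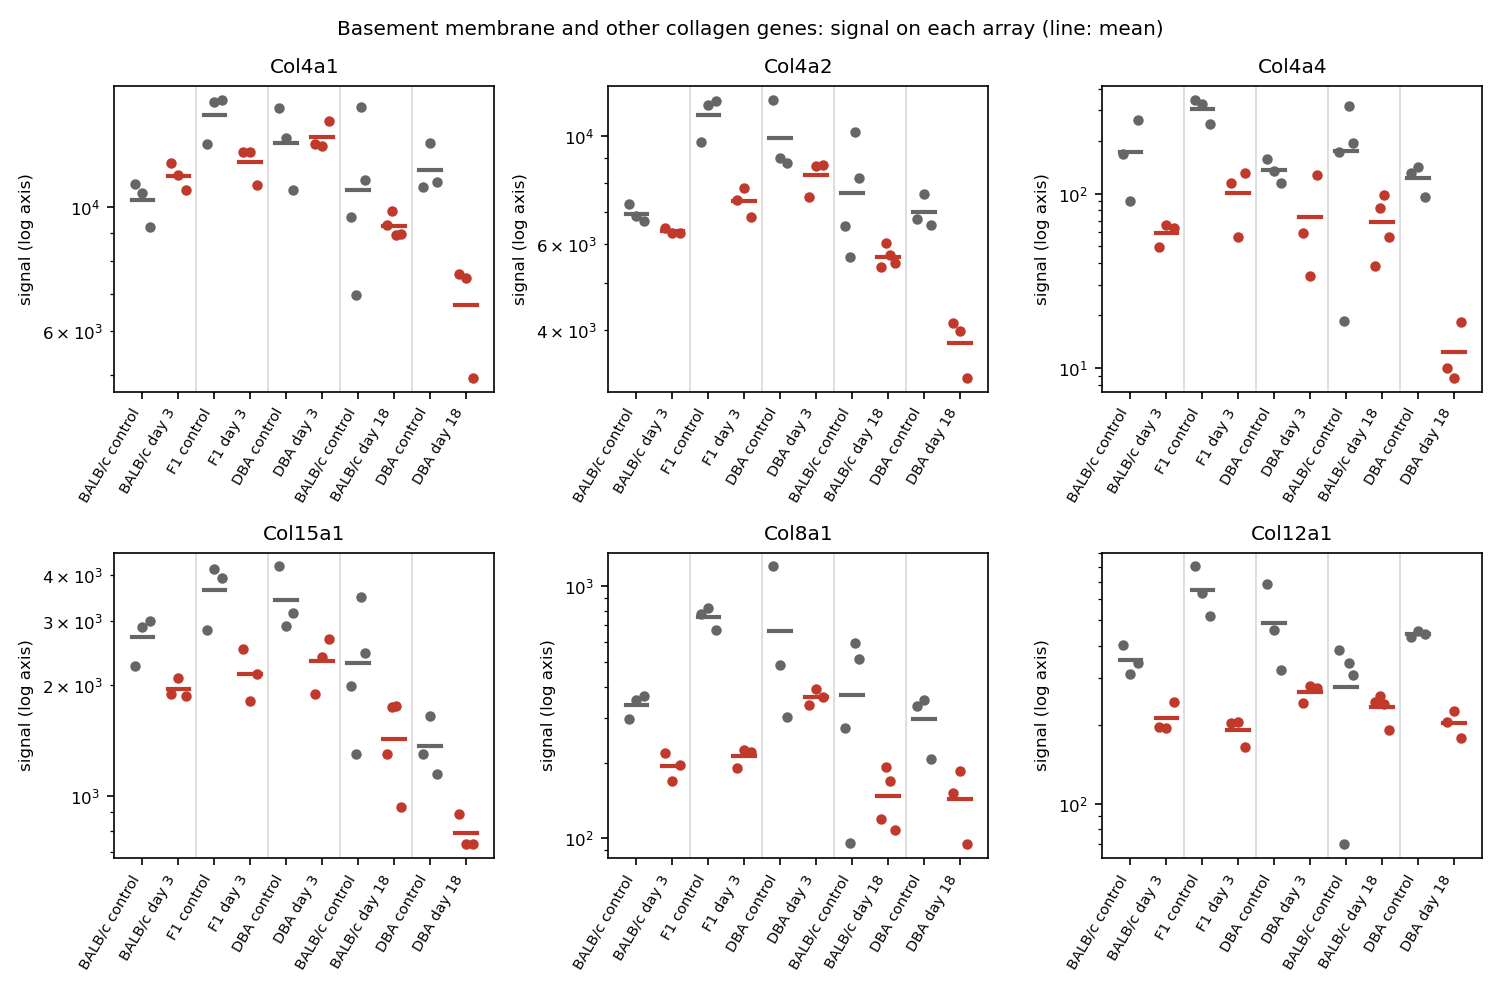
Signal of Col4a1, Col4a2, Col4a4, Col15a1, Col8a1 and Col12a1 on each array (log axis), grey for controls and red for pristane, with a line at the mean; pairs between vertical lines share a strain and a title code run. In the DBA day 18 pair at the right of each panel all treated arrays lie below all controls, and the BALB/c day 18 pair contains the control array that read 70.1 for Col12a1.

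The 9 members below the filter were Col2a1 and Col11a1 (fibrillar), Col9a2 and Col9a3 (FACIT), and Col6a5, Col10a1, Col17a1, Col25a1 and Col26a1. They include the type II, IX and X chains typical of cartilage. No array exceeded 81.3 for any of them except for Col25a1, which reached 117.9 and passed 103.7 on 2 arrays. With no filter on dim genes, where all 42 were tested, 6 were called higher and 2 lower in BALB/c at day 3, 4 and 9 in F1, 9 and 1 in DBA at day 3, 6 and 7 in BALB/c at day 18, and 10 and 7 in DBA at day 18.

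Whether strains responded differently was tested on the difference of responses. Between BALB/c and DBA no member was called at day 3 or day 18 (0.492% and 1.01% of all genes tested were called). The day 3 arrays of both strains share a title code run. Those of day 18 and their controls lie in a different run for each strain, so strain and run cannot be told apart in the day 18 difference. At an unadjusted p under 0.05 there were 4 members at day 3 (Col14a1, Col20a1, Col4a6 and Col5a3) and 9 at day 18, and the lowest adjusted p was 0.41 and 0.12. The day 18 differences between strains reached from -1.46 to 1.17, with a median standard error of 0.34. The value of -1.46 was that of Col7a1, whose BALB/c day 18 call rested on BALB/c control replicate 2. Col24a1 was -1.25 (adjusted p = 0.14), Col1a1 -0.81 (0.29), Col1a2 -0.46 (0.26), Col4a1 0.67 (0.18) and Col4a2 0.49 (0.23), each as the BALB/c response minus the DBA response. For these genes the DBA day 18 difference was numerically the larger through the brightest probe set. The second Col1a1 probe set went the other way, at 1.17 (0.0022) in BALB/c and 0.60 (0.16) in DBA. The others of the 9 were Col12a1, Col27a1, Col6a2 and Col6a4. Of these, Col6a4 had the larger difference in BALB/c (0.63, against -0.33 in DBA, neither called). The difference between strains did not pass the threshold for any member, which does not show that the strains responded alike.

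The F1 response differed from that of both parents in Col4a6 and Col11a2 (0.238% of all genes tested were called against BALB/c, with 0.184% higher, and 2.01% against DBA, with 1.68% higher and 0.330% lower). Col4a6 stood 2.74 ± 0.43 above the BALB/c response (adjusted p = 0.0030) and 1.79 ± 0.43 above the DBA response (0.019). Col11a2 stood 2.52 ± 0.49 (0.019) and 2.51 ± 0.49 (0.0029) above them. Col1a2 was -0.87 ± 0.21 against DBA (0.025). With a term for Xist the Col11a2 difference from BALB/c was 2.41 (0.083) and the Col1a2 difference -0.72 (0.16), neither called. Single arrays also ended calls. The Col11a2 difference from BALB/c was lost without BALB/c day 3 replicate 2, BALB/c control replicate 5, F1 day 3 replicate 2 or 3 or F1 control replicate 3 (0.058 to 0.084). The Col4a6 difference from DBA was lost without F1 day 3 replicate 1, F1 control replicate 3, DBA day 3 replicate 2 or DBA control replicate 5 or 6 (0.058 to 0.080). The Col1a2 difference was lost without F1 day 3 replicate 3, F1 control replicate 2 or 3, DBA day 3 replicate 1 or 2 or DBA control replicate 6 (0.057 to 0.12).

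Between day 18 and day 3 no member was called in either parental strain (0.361% of all genes tested were called in BALB/c, and 4.18% in DBA, with 2.47% higher and 1.71% lower). In BALB/c 1 member, Col5a1, had an unadjusted p under 0.05, and in DBA there were 6 (Col14a1, Col20a1, Col24a1, Col4a1, Col4a2 and Col6a3), with a lowest adjusted p of 0.16 and 0.055. Each time was measured against controls of its own title code run.

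The same genes were compared between untreated strains. Among controls of the day 3 run, 3 members were higher in DBA than in BALB/c (7.68% of all genes tested were called, 4.03% higher and 3.64% lower): Col4a6 by 2.41 ± 0.30 (adjusted p = 3.9e-06), Col5a3 by 1.43 ± 0.44 (0.042) and Col4a2 by 0.50 ± 0.15 (0.039). In F1 controls 2 were higher than in BALB/c controls (2.67% called): Col5a3 by 2.00 ± 0.44 (0.010) and Col4a2 by 0.66 ± 0.15 (0.013). Col4a6 was the 1 member that differed between F1 and DBA controls (1.26% called), at -2.28 ± 0.30 (4.2e-05). Col5a3 read 1527.4, 2588.2 and 1524.2 in BALB/c, 6041, 8276.2 and 7957.3 in F1 and 9677.3, 3907.5 and 3202.1 in DBA. The F1 and BALB/c values were separate, and the DBA values were spread widely. Apart from Col4a6, each of these calls was lost when one of several single arrays was left out: for DBA against BALB/c, BALB/c control replicate 5, 6 or 7 or DBA control replicate 4 or 5 for Col4a2 (0.054 to 0.23) and BALB/c control replicate 5 or 7 or DBA control replicate 4 or 5 for Col5a3 (0.059 to 0.28). For F1 against BALB/c it was BALB/c control replicate 7 or F1 control replicate 2 or 3 for Col4a2 (0.057 to 0.072) and BALB/c control replicate 7 or F1 control replicate 2 for Col5a3 (0.055 and 0.059). The F1 controls differed from the other controls of that run in Xist as well.

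The genes that make and modify collagen were followed as lists. Their counts stand beside the shares of all genes tested. Called higher were 18.3%, 18.6% and 16.4% in BALB/c, F1 and DBA at day 3, and 21.7% and 22.4% in BALB/c and DBA at day 18. The shares called lower are those given with the first comparison. Of 18 tested genes of biosynthesis and folding, 9, 9, 8, 8 and 10 were called higher and 0, 1, 0, 2 and 1 lower in BALB/c, F1 and DBA at day 3 and BALB/c and DBA at day 18, with medians of 0.55, 0.56, 0.52, 0.34 and 0.58. Plod2, the lysyl hydroxylase of collagen telopeptides, rose in all 5 (0.82 to 1.61), as did Colgalt1, which glycosylates hydroxylysine (0.60 to 1.02), and P3h4 (0.84 to 1.25). Creb3l1, a transcription factor of secretory cells, rose in 4 (1.45 to 1.96) and was at 0.37 in BALB/c at day 18 (adjusted p = 0.32). P4ha1, a catalytic subunit of prolyl 4-hydroxylase, rose in 4 and was at 0.32 in BALB/c at day 3 (0.36). Serpinh1, the collagen chaperone, was called in none (0.07 to 0.54). Colgalt2 was lower in F1 (-0.75, 0.013) and in BALB/c at day 18 (-0.81, 0.0019).

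Of 9 tested genes of processing and cross-linking, 4, 3, 3, 3 and 6 were called higher and 1, 1, 0, 1 and 1 lower. Bmp1, the procollagen C-proteinase, rose in all 5, most in DBA at day 18 (1.99, adjusted p = 5.3e-10), and Loxl1 rose in all 5 (0.51 to 1.01). Lox, lysyl oxidase, rose by 2.23 in BALB/c at day 3, 1.60 in DBA at day 3, 1.48 in BALB/c at day 18 and 1.39 in DBA at day 18, and was at 0.88 in F1 (0.077). Pcolce2, an enhancer of C-proteinase, was the 1 called lower, in 4 responses (-1.50 to -0.95).

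Of 9 tested genes of degradation, 5, 5, 6, 6 and 8 were called higher and 0, 1, 0, 0 and 0 lower. Timp1, a metalloproteinase inhibitor, had the largest differences of this list, from 3.51 to 4.44. Mmp14, the membrane-bound collagenase, rose by 1.46 to 1.73 in all 5. Mmp8, the neutrophil collagenase, rose by 3.17 in BALB/c and 2.03 in F1 at day 3 and by 3.05 and 3.16 at day 18, and was at 1.45 in DBA at day 3 (adjusted p = 0.067). Ctsk, cathepsin K, rose by 1.79 and 2.01 at day 18. Timp2 was lower in F1 (-0.31, 0.041) and higher in DBA at day 3 and day 18 (0.52 and 0.53).

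Of 7 tested receptors, 2, 3, 1, 2 and 2 were called higher and 1, 2, 0, 0 and 1 lower. Beside the background shares, these small counts are not a result about the receptors as a list. Lair1, an inhibitory collagen receptor of leukocytes, rose in all 5 (1.29 to 3.17). Itga10 rose in BALB/c and F1 at day 3 (1.50 and 1.55), and Mrc2, an endocytic collagen receptor, in F1 at day 3 and in both strains at day 18 (0.64, 1.04 and 1.10). Of 9 tested fibril-associated proteoglycans and glycoproteins, 0, 0, 2, 1 and 2 were called higher and 3, 3, 1, 1 and 4 lower. These small counts are likewise not a result about the list. Fmod, fibromodulin, fell in all 5 (-2.46 to -1.13), whereas Lum, lumican, rose in DBA at day 3 and day 18 (0.58 and 0.74). Prelp fell in BALB/c and F1 at day 3 and in DBA at day 18 (-0.72, -1.50 and -1.19).

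**Figure D5:**
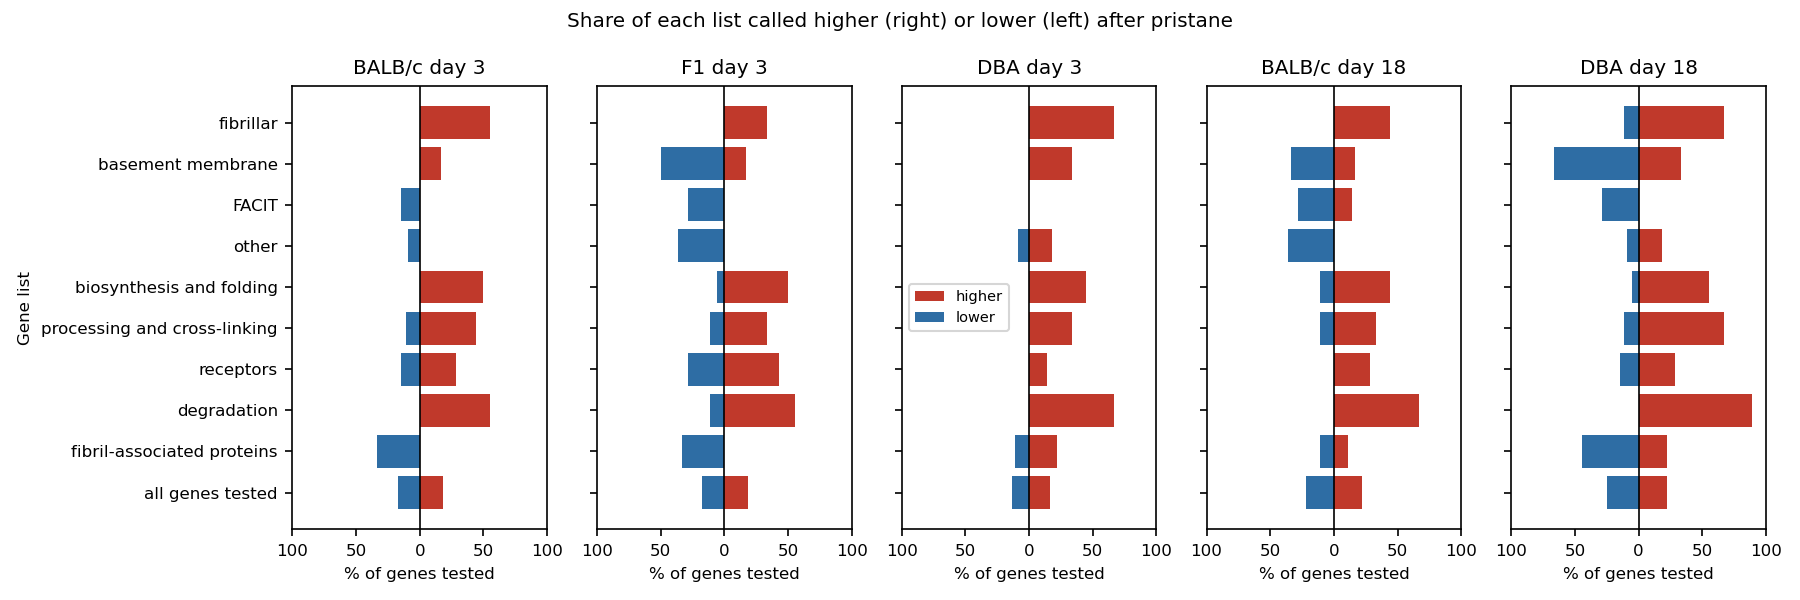
Share of the tested genes of each collagen class and pathway list called higher (red, right) or lower (blue, left) in the 5 responses, in percent, with all 13016 genes tested in the bottom row. Red bars prevail in the fibrillar, biosynthesis, processing and degradation rows, and blue bars in the FACIT row and, in F1 and at day 18, in the basement membrane row. The fibrillar row includes Col24a1, tested through treated arrays alone, and the basement membrane row Col4a3, tested through controls alone.

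Markers of cell types moved with treatment beside these genes. The marker counts, too, stand beside the background shares given above, and a count of 1, 2 or 3 is not a result about a list. Of 8 fibroblast markers tested, 3, 3, 2, 3 and 2 were called higher and 1, 1, 0, 1 and 1 lower in the order used above. The mean log2 signal of the fibroblast markers, treated against controls, was 11.171 to 11.34 against 10.881 to 11.165 in BALB/c at day 3. It was 11.241 to 11.451 against 11.034 to 11.094 in F1 and 11.124 to 11.311 against 10.814 to 10.987 in DBA at day 3. These day 3 groups did not overlap. At day 18 the groups overlapped, at 11.147 to 11.527 against 10.29 to 11.217 in BALB/c and 10.907 to 11.175 against 10.795 to 10.949 in DBA. The value of 10.29 was that of BALB/c control replicate 2. Of 8 macrophage markers 7, 6, 8, 7 and 8 were higher and none lower. Of 8 endothelial markers none was higher and 4, 5, 3, 5 and 8 were lower. Their mean log2 signal, treated against controls, was 9.543 to 9.695 against 10.097 to 10.345 in BALB/c at day 3. It was 9.643 to 10.062 against 10.187 to 10.526 in F1 and 10.034 to 10.155 against 10.327 to 10.617 in DBA at day 3. At day 18 it was 9.484 to 9.896 against 9.849 to 10.74 in BALB/c and 9.295 to 9.788 against 10.342 to 10.575 in DBA. In the same order, 0, 3, 0, 2 and 4 of the 6 type IV chains were called lower and 1, 1, 2, 1 and 2 higher. A link between these chains and the endothelial markers was not tested. Of 6 adipocyte markers none was higher and 4, 3, 0, 6 and 5 were lower. Of 8 smooth muscle markers, 2 were lower in F1 and none was called in the other responses. Of 7 lymphocyte markers 1, 4, 1, 4 and 3 were higher and 0, 0, 0, 0 and 1 lower. Of 7 intestinal epithelial markers 2 were higher in BALB/c at day 18 (median 1.84), 2 were lower in F1 and 1 was lower in DBA at day 18. Of 5 skeletal muscle markers 0, 0, 1, 1 and 2 were higher and 0, 1, 0, 0 and 1 lower, and none of 8 pancreatic acinar markers was called. Of 8 mesothelial markers 1, 3, 2, 4 and 3 were higher and 2, 1, 0, 1 and 1 lower. Of 8 listed cartilage markers 3 passed the filter, of which 1 was lower in BALB/c at day 3 and 1 higher in both F1 and DBA at day 18. The ratio of 3' to 5' actin signal, a sign of RNA integrity, was lower in treated arrays, with an overlap between groups in BALB/c at day 3 (1.63 to 2.21 against 2.10 to 2.60). It was 1.12 to 1.22 against 1.29 to 2.29 in BALB/c at day 18, 1.37 to 1.69 against 2.07 to 2.15 in F1, 1.84 to 2.01 against 2.15 to 2.87 in DBA at day 3, and 1.16 to 1.23 against 1.26 to 1.35 in DBA at day 18. The part of these markers and of RNA integrity in the collagen results was not tested.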

How the data were processed

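Mesentery RNA was extracted with TRIzol and RNeasy and amplified before hybridization to Affymetrix mouse whole-genome arrays, per the labels' protocols. The deposited values are linear intensity signals, 1 per probe set, made with GCOS and MAS5 per the submitters' processing notes. On each of the 32 arrays the authors had scaled the 2% trimmed mean to 500, as measured on the deposited values. The labels name ANOVA in Partek without settings. Here signals were taken as log2(signal + 24.9), the offset being the 25th percentile of all values. Probe sets above 103.7, the median, on at least 3 arrays were kept, and each gene was read through its brightest kept probe set with 1 symbol. One limma 3.58.1 model (R 4.3.3) with a mean for each of 10 combinations of group and title code run, 22 residual degrees of freedom and an intensity trend gave each comparison, with Benjamini-Hochberg adjustment over 13016 genes and a threshold of 0.05. Errors marked ± after a difference are standard errors, and an adjusted p stands in parentheses after its difference.

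Values by array are given, per response, for up to 6 members with the largest rise and up to 6 with the largest fall among those called, and for the 3 brightest of each class. For differences of responses or of controls, called members are named, up to 8. From each pathway list up to 3 called genes by size per response were eligible, and Serpinh1, Colgalt2, Timp2 and Lum were named after their values were seen. The members and lists were chosen with earlier results of these data known. The code was tested on simulated data with known changes. The alternatives covered the offset, filter, normalization, probe sets, model terms, array weights, F1 controls and each array in turn.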

Additional observations from a re-analysis of the deposited data

Results flagged for a closer look

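Single arrays stood apart from the others of their group in 4 of 56 sets of array values examined, where chance gives about 1 in 20. BALB/c control replicate 2 was one of them for 3 genes: it read 70.1 for Col12a1, where the other 3 controls of its run lay between 309.4 and 384.5, 365.5 for Col16a1 (others 1014.1 to 1125.1), and 4069 for Col7a1 (others 118.4 to 187.9). For Col24a1, BALB/c day 18 replicate 1 read 233.1, and the other 3 treated arrays lay between 114.8 and 125.1.

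The F1 response differed from a parental response for 3 genes by the limma test of the difference. Col11a2 stood 2.52 above the BALB/c response and 2.51 above the DBA response, Col4a6 stood 2.74 and 1.79 above them, and Col1a2 was -0.87 relative to DBA. In F1 an effect of pristane and an effect of sex cannot be told apart, since the treated and control arrays differ in Xist.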

How the results depend on the processing

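Of 2634 recomputed values of single genes, 2373 kept their direction and their side of the threshold, 164 lost a call, 97 gained one and none turned. Of 64 calls in the 5 responses, 44 held without each array in turn and 35 under each alternative that gave a value for the gene itself. Of these 35, 28 also had every kept probe set of the gene called the same way. The stricter filter left out the genes of 21 of the 64 calls, and 19 calls met all these conditions. With array weights, BALB/c day 3 had 10 higher and 10 lower, F1 day 3 8 higher, DBA day 3 5 lower and DBA day 18 14 lower. The differences of responses then had 1 lower (BALB/c minus DBA, day 3), 4 lower (F1 minus BALB/c), 10 lower (F1 minus DBA), 4 higher and 6 lower (BALB/c minus DBA, day 18), and 5 and 6 lower between times in BALB/c and DBA, and F1 controls had 14 higher than BALB/c and 10 higher than DBA. With a separate fit for each comparison, BALB/c day 3 had 12 higher and 9 lower, DBA day 3 4 lower, BALB/c day 18 1 higher and 1 lower, BALB/c minus DBA at day 3 1 lower, F1 minus BALB/c 2 lower, F1 minus DBA 1 higher, DBA between times 3 lower, and F1 controls 6 higher than BALB/c and 1 higher than DBA. Such a fit has fewer arrays. With the stricter filter, which tests fewer genes, lower counts were 0, 5, 0, 4 and 5 in the order BALB/c, F1, DBA at day 3 and BALB/c, DBA at day 18, F1 minus BALB/c and F1 minus DBA each had 1 higher, and DBA between times had 1 lower. The term for Xist gave 2 lower in F1 day 3, 1 higher in F1 minus BALB/c, 0 lower in F1 minus DBA, 2 lower in DBA between times and 0 higher in F1 against BALB/c controls. Parental controls gave F1 10 higher and 4 lower. Quantile normalization gave BALB/c day 3 10 higher, F1 day 3 7 higher and F1 minus DBA 0 lower. Median centring gave BALB/c day 18 4 lower, F1 minus DBA 0 lower, and 1 higher in both DBA and F1 controls against BALB/c. The mean of probe sets gave BALB/c day 3 4 lower, F1 minus DBA 0 lower and DBA between times 1 lower. Counting a gene only where each of its probe sets, fitted singly, was called gave BALB/c day 3 1 lower, DBA day 18 5 lower and F1 minus DBA 0 lower. The offset at the median gave DBA day 3 2 lower and BALB/c minus DBA at day 18 1 lower. No dim filter gave 1 higher in DBA against BALB/c controls. Apart from the settings named with fewer arrays or genes, the cause was not tested.

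Without each array in turn, higher and lower counts ran from 6 to 6 and 2 to 3 in BALB/c day 3, 4 to 4 and 6 to 8 in F1, 8 to 10 and 0 to 1 in DBA day 3, 4 to 7 and 4 to 12 in BALB/c day 18, and 8 to 10 and 6 to 8 in DBA day 18. They ran from 0 to 0 and 0 to 0 in BALB/c minus DBA at day 3, 1 to 2 and 0 to 0 in F1 minus BALB/c, 1 to 2 and 0 to 2 in F1 minus DBA, 0 to 1 and 0 to 1 in BALB/c minus DBA at day 18, 0 to 0 and 0 to 1 between times in BALB/c, and 0 to 0 and 0 to 2 in DBA. Among controls they ran from 1 to 3 and 0 to 0 in DBA against BALB/c, 0 to 2 and 0 to 0 in F1 against BALB/c, and 0 to 0 and 1 to 1 in F1 against DBA. No paired analysis was possible because the labels give no shared replicate numbers. Signals under the offset have no reliable order, which limits Col24a1 in controls, Col4a4 in DBA at day 18 and the 9 members that were not tested.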
